A study of Mus musculus with 12 samples.

Results

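Neurons release transmitter when synaptic vesicles fuse with the membrane at the active zone of the nerve terminal. The genes described here encode that machinery: the calcium sensors, the proteins of the vesicle membrane, the SNARE fusion proteins and their regulators, and the scaffold at which vesicles dock. They were chosen by gene symbol, with earlier results of these data known, and 61 of the 23079 genes of the count table matched. Of these, 56 had enough reads to be among the 14732 genes tested. The other 5 were Cplx3, Cplx4, Syngr4, Syt8 and Vamp5, which had few or no counts.

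Expression was measured by RNA sequencing in neurons of the pontine nucleus, the hindbrain relay from the cerebral cortex to the cerebellum, in CD-1 mouse embryos at stage E18.5. The neurons of all groups carried a genetic label, were dissected and were sorted at 2000 cells per replicate. The reference group, Math1tdTomato (n = 6), carries the name of Math1 (Atoh1), the rhombic lip gene of the lineage that forms pontine neurons, and of the red reporter tdTomato. Hoxa5tdTomato (n = 3) carries the name of Hoxa5, a homeobox gene of hindbrain and spinal cord patterning, with the same reporter. Math1Hoxa5-IRES-GFP (n = 3) combines Math1 with Hoxa5 and a green reporter, and its columns in the count table name Math1, a Cag promoter, an lsl (lox-stop-lox) element and Hoxa5. The columns of Hoxa5tdTomato name a Hoxa5 cre. The labels do not say whether replicates came from separate embryos or litters, so p-values measure only the spread between these samples.

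Fusion is carried out by SNARE proteins: a vesicle SNARE (VAMP, or synaptobrevin) zips together with a syntaxin and SNAP-25 of the target membrane. Synaptotagmins are membrane proteins of vesicles, several of which bind calcium and trigger fusion, while complexins and Munc13 (Unc13) proteins clamp or prime the SNARE complex. Synapsins hold vesicles in a reserve, and RIM, Bassoon and Piccolo, with the small GTPase Rab3, bring them to the release site.

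In the count table, 3 reference columns carry creErt2 in their names and 3 carry tdT. By likeness of wording only, the creErt2 references were placed beside Hoxa5tdTomato (set 1) and the tdT references beside Math1Hoxa5-IRES-GFP (set 2). Nothing in the labels states this pairing. Set 1 libraries summed to between 9973484 and 13302076 counts and set 2 libraries to between 22355961 and 29820776. Sequencing depth therefore cannot be told apart from the set. Values are CPM, read counts relative to the scaled library size, and levels compared between genes are given per kilobase (RPKM). A count of 3 in a library corresponds to between 0.107 and 0.274 CPM.

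Hoxa5 itself checks the labels. It lay at 8.79, 8.61 and 23.1 CPM in the set 1 references and at 127, 221 and 119 CPM in the Hoxa5tdTomato libraries. It lay at 8.06, 4.35 and 32.2 CPM in the set 2 references. The libraries labelled Math1Hoxa5-IRES-GFP held 9.73, 16.8 and 81.9 CPM, so their replicates 1 and 2 were within the range of the references. Every direction given below for this group therefore refers to the libraries labelled Math1Hoxa5-IRES-GFP. Whether reads of an introduced Hoxa5 copy were counted is not given in the sources used here.

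Replicate 3 of the Math1Hoxa5-IRES-GFP libraries stood apart. It had a count in 13074 genes, against 14779 to 16290 in the other 11 libraries. Its correlation with replicates 1 and 2 over genes was 0.890 to 0.896, while replicates 1 and 2 correlated at 0.946 and the libraries of the other groups at 0.955 to 0.967. It also had the highest level of Barhl1, a transcription factor gene of rhombic lip neurons, at 345 CPM against 105 to 201 CPM in the other libraries. Calls that rest on it are given with and without it.

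The labelled tissue was checked against marker genes. Slc17a6, the vesicular glutamate transporter of many brainstem neurons, lay between 285 and 506 CPM, whereas Slc17a7 did not exceed 1.08 CPM. Of 7 genes of inhibitory neurons, Gad1, Slc32a1, Slc6a5, Pax2 and Lhx5 did not exceed 5.81 CPM, while Gad2 lay between 108 and 323 CPM and Lhx1 between 4.36 and 108 CPM. Markers of blood vessel cells were low in most libraries but higher in Hoxa5tdTomato: the summed level of 10 endothelial genes was 93.3 to 175 CPM there, against 2.58 to 23.6 CPM in the set 1 references. The sum of 8 pericyte genes was 111 to 233 CPM against 5.42 to 17.2 CPM, with Anpep at 0 in those references. The sum of 8 astrocyte and radial glia genes was 825 to 1192 CPM against 629 to 726 CPM, with Gfap at 0 in Hoxa5tdTomato. Without Ptprz1, which lay at 378.5 to 451 CPM against 115 to 152 CPM, that sum overlapped (446 to 741 CPM against 512 to 574 CPM). The sum of 7 meningeal genes was 39.0 to 79.3 CPM against 5.77 to 13.9 CPM. The sum of 12 genes of pontine and glutamatergic neurons was 5419 to 5785 CPM against 7765 to 8237 CPM, and Nfib of this list fell. In set 2 these sums overlapped between the groups, with endothelial genes at 0.201 to 35.6 CPM against 1.14 to 17.5 CPM in the references. The part of these cells in the changes described for Hoxa5tdTomato was not tested. In bulk samples, fewer cells of a type and less RNA per cell cannot be told apart.

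Per length, the references expressed mainly the core of the fusion machinery. Snap25, the target SNARE on the plasma membrane, had the highest level at 287 ± 56.2 RPKM (SD, n = 6). Syt1, the fast calcium sensor of many central synapses, followed at 121 ± 18.6 RPKM. The vesicle glycoprotein gene Sv2b stood at 95.9 ± 24.3 RPKM and the vesicle SNARE gene Vamp2 at 82.8 ± 8.49 RPKM. Syn1, which encodes synapsin I, stood at 75.9 ± 12.2 RPKM. The ranges of the 6 references overlapped between Syt1 and Sv2b, between Sv2b and Vamp2 and between Vamp2 and Syn1. Syt4 (58.8 RPKM), Pclo (50.3 RPKM), Syt5 (49.9 RPKM) and Syt11 (49.4 RPKM) were also among the 10 highest.

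**Figure D1:**
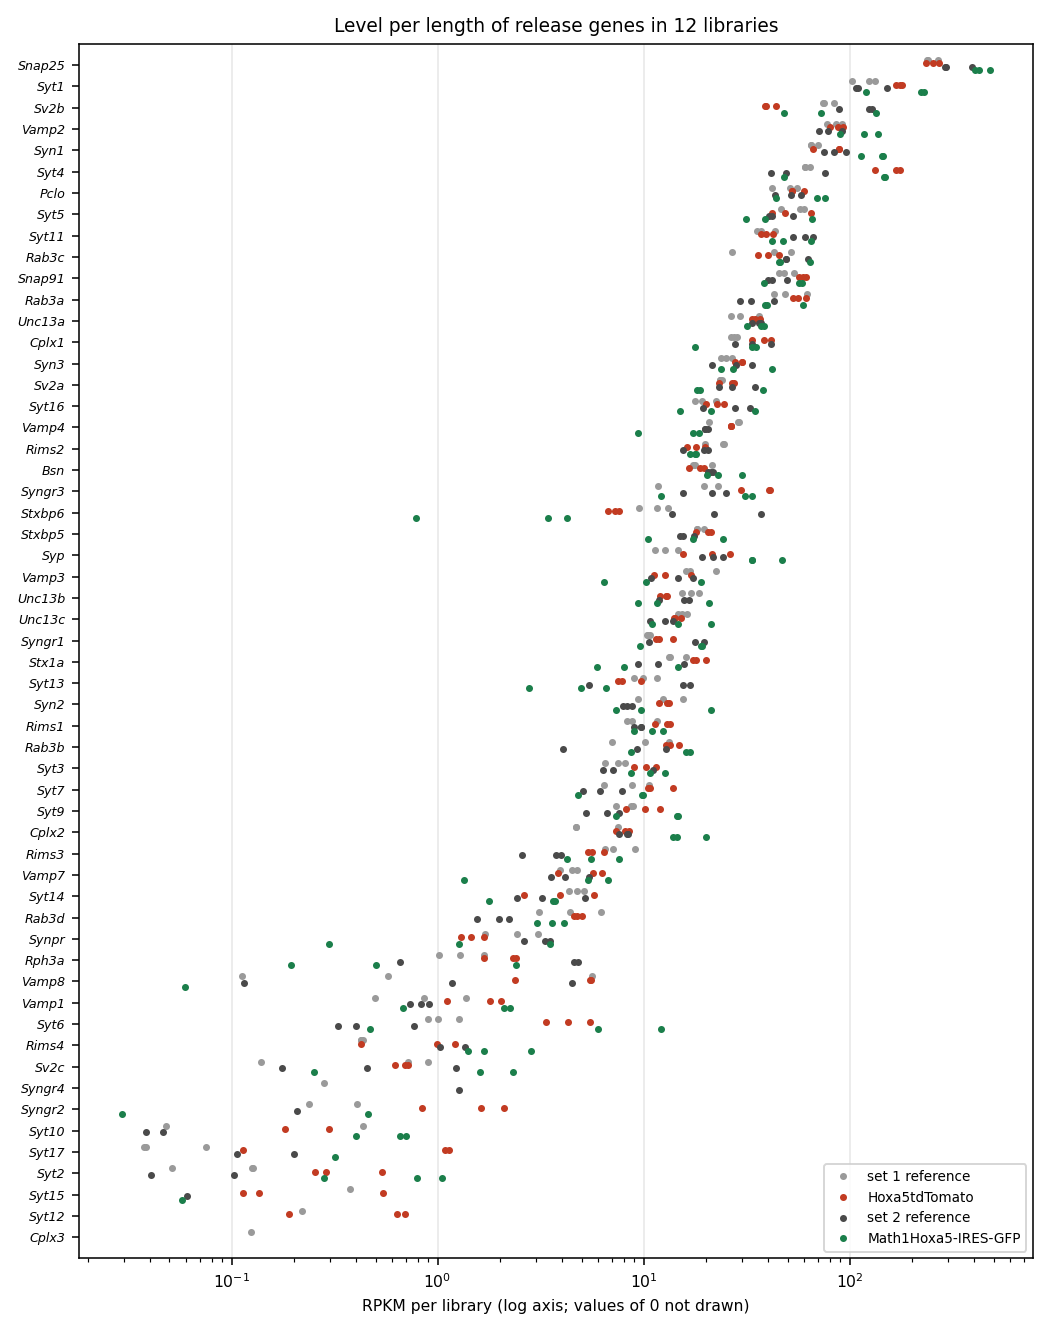
Level per length of the release genes in each of 12 libraries, in RPKM on a log axis, with genes ordered by their mean in the 6 references and 1 point per library. Snap25 is highest and the lowest genes lie below 1 RPKM. Some of the genes not described by name and the 3 genes listed at 0 in every reference (Cplx4, Syt8, Vamp5) are not drawn.

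Within families the levels were uneven. Among the vesicle SNAREs, Vamp2 was at 82.8 RPKM and its close relative Vamp1 at 0.866 RPKM. Of the SV2 glycoproteins, Sv2b (95.9 RPKM) exceeded Sv2a (25.9 RPKM) and Sv2c (0.602 RPKM). Of the complexins, which bind the assembled SNARE complex, Cplx1 was at 30.9 RPKM and Cplx2 at 6.89 RPKM, while Cplx4 was listed at 0 in all references. The synaptotagmins ranged from Syt1 at 121 RPKM to Syt6 at 0.778 RPKM and to Syt8, listed at 0. Syt2, the fast sensor of many hindbrain synapses in the adult, stood at 0.0747 RPKM.

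Summed over the 61 genes, the Hoxa5tdTomato libraries held 8429 to 8758 CPM and the set 1 references 7247 to 8077 CPM. The libraries labelled Math1Hoxa5-IRES-GFP held 9147 to 10653 CPM and the set 2 references 8050 to 9065 CPM. The sum was thus higher in every library of both groups than in its own references. As a share of all counts before scaling, Hoxa5tdTomato stayed above its references (0.934 to 0.979% against 0.760 to 0.819%). In set 2 the shares overlapped (0.779 to 1.02% against 0.769 to 0.889%), with replicate 3 at 0.779%.

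Counts of genes past the test can be read against the whole table. Against all 6 references, 3 of 56 members passed in Hoxa5tdTomato (edgeR quasi-likelihood test, Benjamini-Hochberg adjusted p under 0.05), and so did 1.73% of all genes tested. In the libraries labelled Math1Hoxa5-IRES-GFP 6 of 56 members passed, against 1.84% of all genes. The median log2 change of the members was 0.20 in the first comparison and 0.14 in the second, where the medians of all genes were 0.00 and 0.00. Both comparisons use the same 6 references. Nearest to the threshold without passing in Hoxa5tdTomato were Syngr3, Syt1, Stxbp6, Syt7 and Snap91, with adjusted p from 0.122 to 0.283 in edgeR. In Math1Hoxa5-IRES-GFP they were Syt4, Syt1, Vamp8, Syt13 and Vamp2, from 0.0674 to 0.125. Of the members tested, Rims4, Syngr2, Syt2, Syt10, Syt12, Syt15, Syt17 and Vamp8 had a count of 0 in at least 1 library, and their fold changes are not given.

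Within the sets fewer members passed. None of the 56 members passed between Hoxa5tdTomato and the set 1 references with edgeR, against 0.557% of all genes. At an unadjusted p under 0.05 there were 7 members and 1312 of the 14732 genes tested. Between Math1Hoxa5-IRES-GFP and the set 2 references 2 members passed, with 0.862% of all genes. Without replicate 3 of Math1Hoxa5-IRES-GFP, 5 members passed within set 1 and 7 within set 2, in each case with 2.43% of all genes. Set 1 has the same libraries with and without that replicate, and the fold changes of its named members moved little, while their standard errors became smaller.

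Among the synaptotagmins, Syt6 and Syt4 passed against the 6 references. Syt6 encodes a synaptotagmin related to Syt3 and Syt10 and is known from the acrosome of sperm. The 250 bases before its start are shown because it rose in both groups and because it was the only member promoter with the homeobox core letters. The sequences are those of RefSeq on GRCm38.p6, which had an entry for 43 of the 61 members. Capitals mark, on either strand, the homeobox core TAATTA, the letters GGACAGC of the REST site and the GC box GGGCGG. The window lies on the plus strand at chr3:103574995-103575244, just before the gene at chr3:103575245-103645567.
Syt6: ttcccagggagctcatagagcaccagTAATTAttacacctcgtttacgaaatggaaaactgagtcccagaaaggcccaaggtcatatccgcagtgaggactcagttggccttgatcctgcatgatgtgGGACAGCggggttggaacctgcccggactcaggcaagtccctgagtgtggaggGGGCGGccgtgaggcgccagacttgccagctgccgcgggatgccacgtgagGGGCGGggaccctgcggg

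Syt6 was low in the references, at 5.68, 5.06 and 7.15 CPM in set 1 and at 2.28, 1.86 and 4.33 CPM in set 2. In Hoxa5tdTomato it lay at 18.9, 31.2 and 24.2 CPM. All 3 libraries lay above all 6 references. In the libraries labelled Math1Hoxa5-IRES-GFP it lay at 68.7, 33.8 and 2.66 CPM, so that replicates 1 and 2 were above every reference and replicate 3 was within their range. Against the 6 references Syt6 rose by 2.51 ± 0.61 (log2, SE) in Hoxa5tdTomato (edgeR, adjusted p = 0.0464) and by 3.01 ± 0.61 in Math1Hoxa5-IRES-GFP (adjusted p = 0.0144). Within set 1 the log2 difference was 2.05 ± 0.74 and did not pass (edgeR, adjusted p = 0.339). Within set 2 Syt6 rose by 3.63 ± 0.78 (edgeR, adjusted p = 0.0429). Without replicate 3 it rose within both sets, by 2.05 ± 0.39 (edgeR, adjusted p = 0.00843) and by 4.18 ± 0.44 (adjusted p = 2.75e-05).

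Syt4, a synaptotagmin of dense core and other neuronal vesicles that is induced by activity, lay at 237, 236 and 252 CPM in the set 1 references and at 653, 689 and 518 CPM in Hoxa5tdTomato. The set 2 references held 192, 297 and 163 CPM and the libraries labelled Math1Hoxa5-IRES-GFP 581, 575 and 188 CPM. The pattern was that of Syt6: every Hoxa5tdTomato library and replicates 1 and 2 of the other group lay above all references, and replicate 3 lay among them. Syt4 rose by 1.43 ± 0.26 in Hoxa5tdTomato against the 6 references (edgeR, adjusted p = 0.0104). In Math1Hoxa5-IRES-GFP its log2 difference was 0.97 ± 0.26 (edgeR, adjusted p = 0.0674). Within the sets the differences were 1.36 ± 0.32 (edgeR, adjusted p = 0.0828) and 1.05 ± 0.31 (adjusted p = 0.157). Without replicate 3 Syt4 rose by 1.36 ± 0.17 within set 1 (edgeR, adjusted p = 0.000265) and by 1.41 ± 0.19 within set 2 (adjusted p = 0.000335).

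Syt1 was abundant everywhere, so a smaller fold carried many reads. It lay at 494, 639.6 and 596 CPM in the set 1 references and at 844, 867 and 806 CPM in Hoxa5tdTomato. It lay at 530.2, 732 and 519 CPM in the set 2 references and at 1101, 1071 and 579 CPM in the libraries labelled Math1Hoxa5-IRES-GFP. Again only replicate 3 was among the references. Syt1 did not pass with all libraries, at log2 differences of 0.54 ± 0.21 within set 1 (edgeR, adjusted p = 0.387) and 0.63 ± 0.21 within set 2 (adjusted p = 0.190). Without replicate 3 it rose by 0.54 ± 0.13 (edgeR, adjusted p = 0.0351) and by 0.87 ± 0.14 (adjusted p = 0.00213). The span of Syt1, chr10:108497650-109010980 on GRCm38.p6, overlaps the gene Gm5136, which held at most 12.1 CPM.

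Of the 16 synaptotagmins tested, 12 had a log2 difference above 0 within set 1 (median 0.46) and 10 within set 2 (median 0.20). Over all genes tested, 49.5% lay above 0 within set 1 and 51.2% within set 2. Syt2, Syt10, Syt12, Syt15 and Syt17, with a count of 0 in at least 1 library, are among the 16 synaptotagmins. Syt9, a fast sensor in some forebrain neurons, did not pass with all libraries (edgeR, adjusted p = 0.204 within set 2). Without replicate 3 it rose within set 2 by 1.17 ± 0.26 (edgeR, adjusted p = 0.0189). Its levels were 20.1, 25.4 and 29.0 CPM in the set 2 references and 55.6, 55.8 and 28.0 CPM in the libraries labelled Math1Hoxa5-IRES-GFP. Whether its change differs between the groups was tested over all libraries and did not pass (edgeR, adjusted p = 0.751). Syt5 and Syt11, among the 10 highest members, did not pass in either comparison with the references. Syt5 lay between 55.2 and 114 CPM over all 12 libraries, and its groups overlapped their references. Syt11, which binds membranes without calcium, lay at 216, 186 and 177 CPM in the set 1 references and at 213, 195 and 186 CPM in Hoxa5tdTomato. It lay at 333, 303 and 264 CPM in the set 2 references and at 325, 236 and 209 CPM in the libraries labelled Math1Hoxa5-IRES-GFP.

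**Figure D2:**
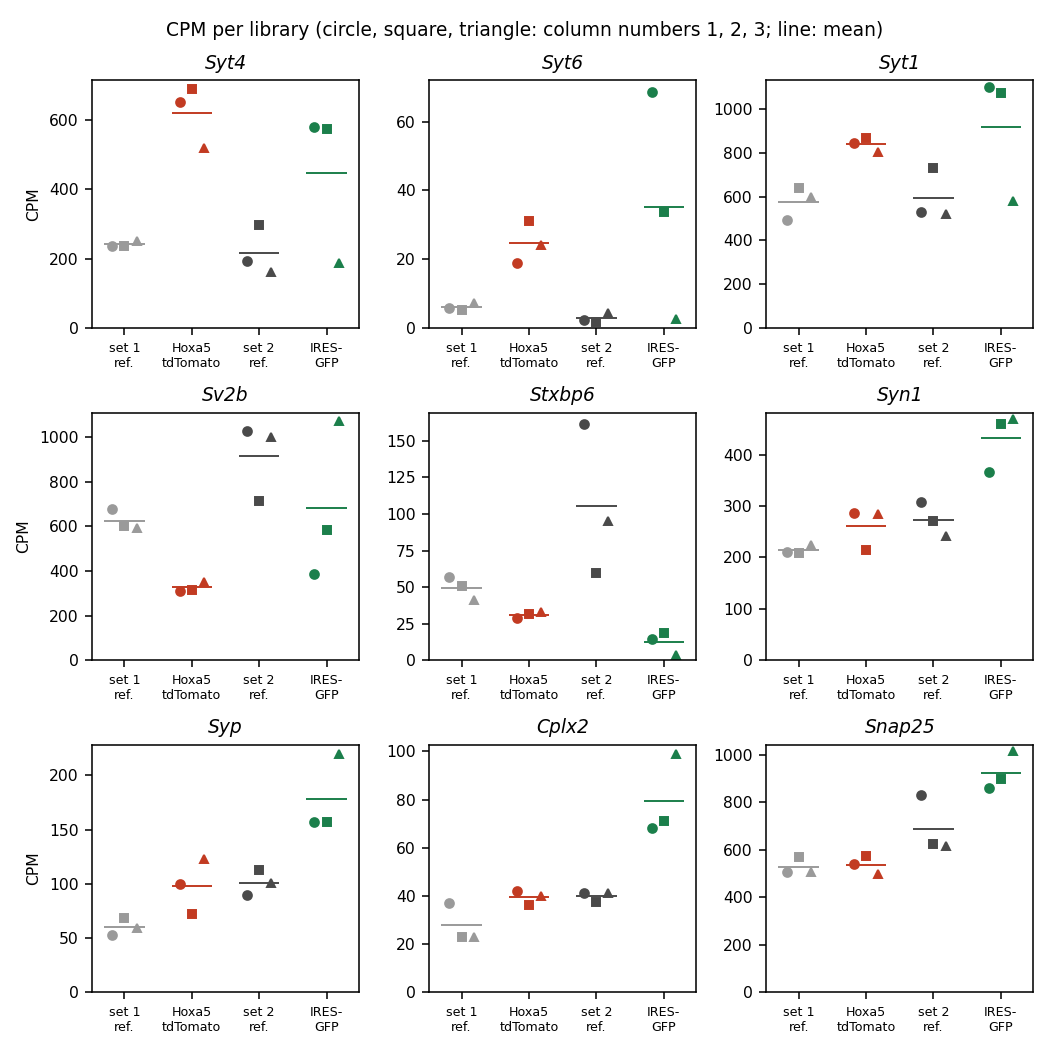
CPM of 9 release genes in each library, by group, with the group mean as a line and the column number as the shape of the point. In Syt4, Syt6 and Syt1 the triangle of IRES-GFP replicate 3 lies among the references, while in Syn1, Syp, Cplx2 and Snap25 it is the highest point.

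Among the vesicle proteins other than synaptotagmins, Sv2b passed against the 6 references in Hoxa5tdTomato, and Syn1 and Syp passed in Math1Hoxa5-IRES-GFP. The promoter windows of these 3 genes are shown because they carry the changes of this class. Capitals mark the letters TATAAA (in Sv2b as TTTATA, on the opposite strand), the cyclic AMP response element TGACGTCA and the REST site part TTCAGCACC (both in Syn1) and the GC box GGGCGG (in Syp). The windows are, on GRCm38.p6, chr7:75309263-75309512 on the minus strand, chrX:20920919-20921168 on the minus strand and chrX:7638330-7638579 on the plus strand.
Sv2b: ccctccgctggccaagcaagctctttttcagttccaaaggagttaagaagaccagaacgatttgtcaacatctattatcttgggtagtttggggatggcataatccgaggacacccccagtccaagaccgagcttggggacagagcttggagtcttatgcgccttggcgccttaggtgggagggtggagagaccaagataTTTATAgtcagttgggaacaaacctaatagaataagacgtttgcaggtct
Syn1: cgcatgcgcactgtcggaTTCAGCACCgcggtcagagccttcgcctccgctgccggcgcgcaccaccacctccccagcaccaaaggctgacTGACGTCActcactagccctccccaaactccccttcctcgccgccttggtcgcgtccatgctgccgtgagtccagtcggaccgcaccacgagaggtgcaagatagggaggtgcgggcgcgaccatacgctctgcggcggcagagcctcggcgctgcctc
Syp: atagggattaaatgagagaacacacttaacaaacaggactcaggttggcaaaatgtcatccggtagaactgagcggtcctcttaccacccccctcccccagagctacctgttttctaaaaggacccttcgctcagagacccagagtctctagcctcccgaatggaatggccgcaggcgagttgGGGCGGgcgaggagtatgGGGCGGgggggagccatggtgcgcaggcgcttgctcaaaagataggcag

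Sv2b lay at 676, 603 and 593 CPM in the set 1 references and at 310.4, 314 and 352 CPM in Hoxa5tdTomato, the lowest 3 of all 12 libraries. It lay at 1026, 714 and 1000.0 CPM in the set 2 references. The libraries labelled Math1Hoxa5-IRES-GFP held 385, 583 and 1072 CPM, with replicates 1 and 2 below every reference and replicate 3 above every reference. Sv2b fell by 1.24 ± 0.27 on the log2 scale in Hoxa5tdTomato against the 6 references (edgeR, adjusted p = 0.0251). Within set 1 the log2 difference was -0.94 ± 0.26 and did not pass (edgeR, adjusted p = 0.166). In Math1Hoxa5-IRES-GFP it was -0.18 ± 0.25 (edgeR, adjusted p = 0.768). Without replicate 3 Sv2b fell by 0.94 ± 0.15 within set 1 (edgeR, adjusted p = 0.00248) and by 0.92 ± 0.17 within set 2 (adjusted p = 0.00642). The gene, at chr7:75114894-75309262, overlaps 1500012K07Rik, which held at most 3.02 CPM.

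Syn1 lay at 209.7, 208 and 225 CPM in the set 1 references and at 287, 214 and 284 CPM in Hoxa5tdTomato. It lay at 309, 271 and 241 CPM in the set 2 references and at 366, 460.1 and 469 CPM in the libraries labelled Math1Hoxa5-IRES-GFP. All 3 of the latter lay above all 6 references. Syn1 rose there by 0.82 ± 0.16 against the 6 references (edgeR, adjusted p = 0.0104). Within set 2 the log2 difference was 0.66 ± 0.16 (edgeR, adjusted p = 0.0666). Without replicate 3 Syn1 rose by 0.76 ± 0.17 against the 6 references (edgeR, adjusted p = 0.0228). Within set 2 and without that replicate, its difference was 0.595 and did not pass (edgeR, adjusted p = 0.0522). In Hoxa5tdTomato the difference to the 6 references was 0.10 ± 0.16 (edgeR, adjusted p = 0.850). Syn1, at chrX:20860511-20920918, overlaps Araf, at 87.4 to 182 CPM, and Timp1, at 0 to 3.20 CPM. The strand setting of the counting is not given, so reads of these genes cannot be told apart where they overlap.

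Syp encodes synaptophysin, the most widely used marker protein of synaptic vesicles. It lay at 52.8, 68.3 and 59.1 CPM in the set 1 references and at 99.7, 72.4 and 123 CPM in Hoxa5tdTomato. It lay at 89.6, 113 and 101 CPM in the set 2 references and at 157, 157 and 219.7 CPM in the libraries labelled Math1Hoxa5-IRES-GFP. Each group lay above its own references, but the Hoxa5tdTomato libraries overlapped the set 2 references. Syp rose by 1.14 ± 0.24 in Math1Hoxa5-IRES-GFP against the 6 references (edgeR, adjusted p = 0.0166). Without replicate 3, its highest library, the difference was 0.96 ± 0.25 and did not pass (edgeR, adjusted p = 0.0581). Within the sets, over all libraries, the log2 differences were 0.71 ± 0.22 (edgeR, adjusted p = 0.234) and 0.81 ± 0.22 (adjusted p = 0.0994).

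Syngr3, a synaptogyrin of the same 4-span family, lay at 38.4, 44.8 and 23.1 CPM in the set 1 references and at 80.0, 80.7 and 58.2 CPM in Hoxa5tdTomato. With all libraries it did not pass within set 1 (edgeR, adjusted p = 0.318). Without replicate 3 of Math1Hoxa5-IRES-GFP it rose there by 1.04 ± 0.26 (edgeR, adjusted p = 0.0383). Of the 12 vesicle proteins tested, 10 had a log2 difference above 0 within set 1 (median 0.22), against 49.5% of all genes. Within set 2, 8 did (median 0.27), against 51.2% of all genes. Syngr2, with a count of 0 in at least 1 library, is among the 12. The summed level of the vesicle proteins did not follow these counts. It was 2007 to 2033 CPM in the set 1 references and 1892 to 2094 CPM in Hoxa5tdTomato, where Sv2b held less of it.

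Of the SNARE genes, Snap25 alone passed in either comparison with the 6 references. It lay at 508, 568 and 505 CPM in the set 1 references and at 539, 576 and 498 CPM in Hoxa5tdTomato, which overlapped. In set 2 it lay at 828, 625 and 614 CPM in the references and at 859.7, 897 and 1016 CPM in the libraries labelled Math1Hoxa5-IRES-GFP. The latter lay above all 6 references. Snap25 rose there by 0.60 ± 0.15 against the 6 references (edgeR, adjusted p = 0.0463) and showed a log2 difference of 0.42 ± 0.14 within set 2 (adjusted p = 0.185). Without replicate 3, its highest library, neither passed, at 0.53 ± 0.16 against the 6 references (edgeR, adjusted p = 0.112) and 0.35 ± 0.13 within set 2 (adjusted p = 0.209). In Hoxa5tdTomato within set 1 the difference was 0.03, with a 95% interval from -0.26 to 0.32.

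Vamp2 overlapped between groups and references in both sets, at 168, 199 and 186 CPM against 191, 174 and 201 CPM in set 1. In set 2 it lay at 199.5, 154 and 169 CPM in the references and at 195, 297 and 254 CPM in the other group. Of the 9 SNARE genes tested, 8 had a log2 difference above 0 within set 1 (median 0.27), against 49.5% of all genes. Within set 2, 4 did (median -0.27), against 51.2% of all genes. Vamp8, with a count of 0 in at least 1 library, is among the 9.

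Among the regulators of the SNARE complex, 2 genes changed, in opposite directions. Stxbp6 encodes amisyn, a syntaxin-binding protein with a SNARE-like domain that can hinder SNARE assembly. It lay at 56.9, 50.4 and 41.1 CPM in the set 1 references and at 29.0, 31.5 and 32.7 CPM in Hoxa5tdTomato. It lay at 162, 59.7 and 95.5 CPM in the set 2 references and at 14.8, 18.47 and 3.41 CPM in the libraries labelled Math1Hoxa5-IRES-GFP. Both groups lay below all 6 references, and here replicate 3 was the lowest library. In Math1Hoxa5-IRES-GFP Stxbp6 fell by 2.66 ± 0.51 on the log2 scale against the 6 references (edgeR, adjusted p = 0.0105) and by 3.11 ± 0.49 within set 2 (adjusted p = 0.00524). Without replicate 3 it fell by 2.66 ± 0.35 within set 2 (edgeR, adjusted p = 0.000246).

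In Hoxa5tdTomato the log2 difference of Stxbp6 was -1.32 ± 0.47 against the 6 references (edgeR, adjusted p = 0.178) and -0.67 ± 0.45 within set 1 (adjusted p = 0.778). Without replicate 3 of the other group, Stxbp6 fell by 1.32 ± 0.35 in Hoxa5tdTomato against the 6 references (edgeR, adjusted p = 0.0399) but did not pass within set 1 (adjusted p = 0.263). The change within set 1 minus that within set 2 was 2.44 ± 0.65, which did not pass (edgeR, adjusted p = 0.459). DESeq2 called that difference for Stxbp6 and for no other member, with 54 of all genes. The gene lies at chr12:44852484-45075118 on GRCm38.p6.

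Cplx2, one of the brain complexins, lay at 37.2, 23.2 and 23.2 CPM in the set 1 references and at 42.1, 36.3 and 40.1 CPM in Hoxa5tdTomato. It lay at 41.5, 37.5 and 41.2 CPM in the set 2 references and at 68.3, 71.3 and 99.0 CPM in the libraries labelled Math1Hoxa5-IRES-GFP. The latter lay above all 6 references and Cplx2 rose there by 1.23 ± 0.24 (edgeR, adjusted p = 0.0116). Within set 2 the log2 difference was 0.99 ± 0.25 (edgeR, adjusted p = 0.0885). Without replicate 3 Cplx2 rose by 1.04 ± 0.25 against the 6 references (edgeR, adjusted p = 0.0336). Within set 2 and without that replicate, its difference was 0.80 ± 0.25 and did not pass (edgeR, adjusted p = 0.109). The summed level of the 10 regulators was 1237 to 1326 CPM in the set 1 references and 1252 to 1296 CPM in Hoxa5tdTomato. Of the 8 regulators tested, 4 had a log2 difference above 0 within set 1 (median 0.03), against 49.5% of all genes. Within set 2, 3 did (median -0.01), against 51.2% of all genes.

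Pclo encodes Piccolo, a very large protein of the active zone, and on average held the most reads of any member in the references. It lay at 939, 1156 and 1241 CPM in the set 1 references and at 1342, 1176 and 1179 CPM in Hoxa5tdTomato. It lay at 1164, 1305 and 972 CPM in the set 2 references and at 1712, 1558 and 983 CPM in the libraries labelled Math1Hoxa5-IRES-GFP, with replicates 1 and 2 above every reference. The log2 difference within set 2 was 0.31 ± 0.18 with all libraries (edgeR, adjusted p = 0.486). Without replicate 3 Pclo rose by 0.51 ± 0.13 within set 2 (edgeR, adjusted p = 0.0499). Of the 11 active zone and Rab3 genes tested, 7 had a log2 difference above 0 within set 1 (median 0.15), against 49.5% of all genes. Within set 2, 8 did (median 0.31), against 51.2% of all genes. Rims4, with a count of 0 in at least 1 library, is among the 11.

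**Figure D3:**
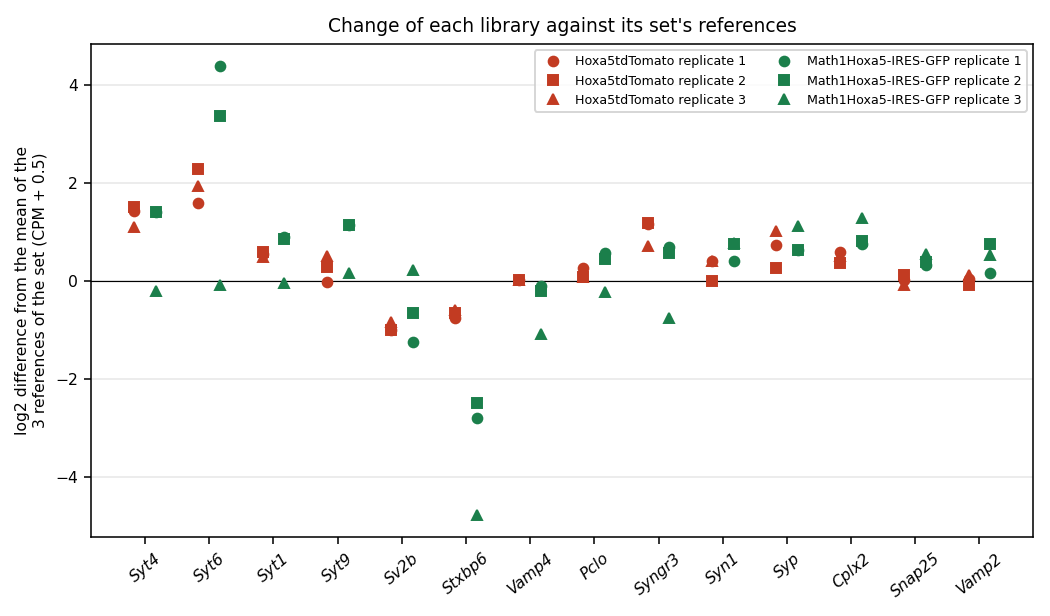
Log2 difference of each Hoxa5tdTomato and Math1Hoxa5-IRES-GFP library from the mean of the 3 references of its set, for 14 release genes, computed on CPM + 0.5. In Syt4, Syt6, Syt1, Syt9, Sv2b, Pclo and Syngr3, IRES-GFP replicate 3 (green triangle) departs from replicates 1 and 2, whereas in Stxbp6 all green points lie below 0.

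Groups that did not overlap were counted over all members. Within set 1, 15 of 56 members lay higher in all Hoxa5tdTomato libraries than in all references, against 12.7% of all genes, and 6 lay lower, also against 12.7% of all genes. Within set 2, 9 members lay higher in all libraries labelled Math1Hoxa5-IRES-GFP, against 6.01% of all genes, and 4 lay lower, against 6.46%. The 6 below in set 1 were Rims2, Rims3, Stxbp6, Sv2b, Synpr and Unc13b. Those below in set 2 included Stxbp6, Vamp4 and Vamp8. Stxbp6 was in both, and of those above, Syp and Syt2 were in both. Rims3, below in set 1, was among those above in set 2. Syt2 was near the limit of detection, at 10, 28 and 11 counts in Hoxa5tdTomato and 60, 22 and 74 counts in the libraries labelled Math1Hoxa5-IRES-GFP, against 0 to 8 counts in the references.

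The changes within the sets, which share no control library, were compared over the 45 tested members with a mean of at least 10 CPM in the 6 references. They correlated across genes at Pearson's r = 0.425 and Spearman's rho = 0.423, with 21 members above 0 in both, 10 below 0 in both and 14 opposite. Without replicate 3 the values were 0.545 and 0.513. With the mean taken over all groups in place of the references, Syt6 entered and Rph3a left, and r was 0.695 and rho 0.534. Genes are not independent replicates, and the scaling was shared by all libraries. No correlation over all genes tested stands beside these values, so whether they are particular to the members was not tested. Over all 56 tested members, low counts included, r was 0.226 and rho 0.385. No member passed the test of the difference between the changes within the sets in edgeR, and 0% of all genes did. An unadjusted p under 0.05 was found for 4 members and 1181 genes, and DESeq2 called 1 member and 54 genes.

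**Figure D4:**
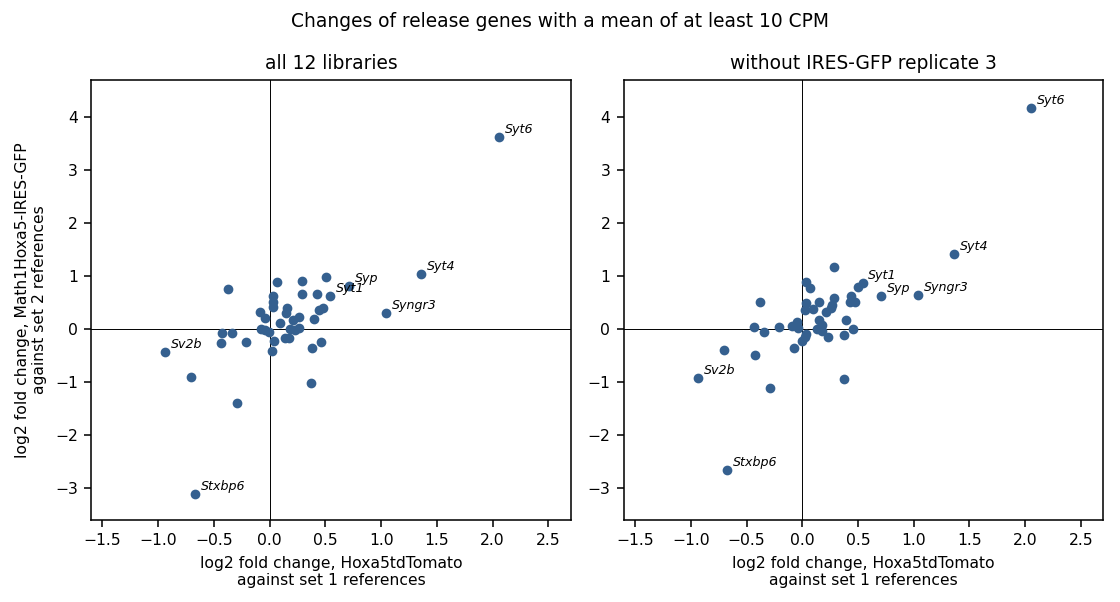
Log2 fold changes of the 45 release genes with a mean over groups of at least 10 CPM, which Syt6 reaches through the groups where it is high, in Hoxa5tdTomato against the set 1 references (horizontal) and in Math1Hoxa5-IRES-GFP against the set 2 references (vertical), with all libraries (left) and without IRES-GFP replicate 3 (right). Syt6 and Syt4 lie at the upper right in both panels and Stxbp6 at the lower left; Sv2b lies lower in the right panel.

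The references of the sets give the background of such differences. Between the 3 references of set 1 and the 3 of set 2, 0 of 56 members passed in edgeR, against 1.34% of all genes. An unadjusted p under 0.05 was found there for 11 members and for 1894 of the 14732 genes tested. DESeq2 called 5 members and 589 genes. Syn1, Syp, Cplx2 and Snap25, which rose in Math1Hoxa5-IRES-GFP against the pooled references, all lay lower in every set 1 reference than in every set 2 reference. Sv2b and Stxbp6 did so too, and Syt6 lay higher in every set 1 reference. Without replicate 3 of Math1Hoxa5-IRES-GFP, 7 members passed between the references, against 5.23% of all genes.

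Other genes of release and vesicle traffic were read beside the members. Of 34 further active zone and SNARE genes, Lin7a, an active zone adaptor, rose in Hoxa5tdTomato by 1.01 ± 0.19 against the 6 references (edgeR, adjusted p = 0.0141) and by 1.10 ± 0.23 within set 1 (adjusted p = 0.0384). It also rose in Math1Hoxa5-IRES-GFP against the 6 references, by 1.05 ± 0.19 (edgeR, adjusted p = 0.00840). Lin7c rose within set 2 by 0.69 (edgeR, adjusted p = 0.0397), and no other gene of the list passed in these 4 comparisons. Of 28 endocytosis genes, Dnm1, which encodes the neuronal dynamin, rose against the 6 references in both groups, by 0.82 and 0.74 (edgeR, adjusted p = 0.0261 and 0.0389). Within the sets it did not pass, at 0.74 and 0.83 (edgeR, adjusted p = 0.157 and 0.0755). Ston2, a stonin of vesicle recycling, fell in Math1Hoxa5-IRES-GFP by 2.47 against the 6 references (edgeR, adjusted p = 0.0144), and its difference within set 2 was -2.25 (adjusted p = 0.0683). Of 37 dense core and accessory genes tested, Vat1l rose by 2.36 in Hoxa5tdTomato against the 6 references (edgeR, adjusted p = 0.0156). Within set 1 its difference of 2.56 did not pass (edgeR, adjusted p = 0.0828). The medians of the 3 lists within set 1 were 0.13, 0.05 and 0.18, and within set 2 0.29, 0.01 and 0.10.

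The promoter letters searched were read over the 43 members with a RefSeq window of 250 bases, on both strands. The GC box GGGCGG was present in 32 members (74.4%), against 33.0% of 27025 promoters of the same length, and the median GC content was 62.0% against 52.0%. The homeobox core TAATTA was present in Syt6 alone (2.33% of members, 4.91% of promoters), 224 bases before the start. The Hox-Pbx letters TGATNNAT were present in Rph3a alone, against 7.89% of promoters. The letters TATAAA were present in Rab3b and Sv2b (4.65%), against 13.0% of promoters. In Syn1 the letters TGACGTCA, held by 1.60% of promoters, began 159 bases before the start. The letters TTCAGCACC, held by 0.292% of promoters, began 232 bases before it. The GC boxes of Syp began 67 and 49 bases before its start. A match of letters is a description and says nothing of binding.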

How the data were processed

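Amplification by SPIA started from 1000 cell equivalents of RNA, and TruSeq Nano libraries were made from 1 ng of the amplified cDNA, per the labels' protocols. The values are raw read counts per gene, deposited by the authors without normalization and with the length of each gene. The build mm10 and bcl2fastq 1.8.4 are named, per the submitters' processing notes; for the aligner, counting tool, annotation and strand, the setting is not given in the sources used here.

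Members were rows whose symbol matched the stated families. Members and lists were chosen with earlier results of these data known. Genes were filtered with filterByExpr (minimum count 10), scaled by TMM and tested with the edgeR 4.0.16 quasi-likelihood test (R 4.3.3; limma 3.58.1 installed with it), with Benjamini-Hochberg adjustment over 14732 genes and a threshold of 0.05. The first fit had the 3 label groups; values within a set came from a fit of 4 column-name groups. The common dispersion was 0.312. Standard errors were derived from the F statistic. RPKM used the deposited lengths. DESeq2 1.42.0, other scalings, no filter, thinning, a replicate block and leaving out each library were alternatives. The script was tested on simulated counts. Limits from counts cover counting error only, since amplified reads are not independent molecules.

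Members past the threshold in either fit, and the 10 highest by RPKM, were named with values per library, and the 5 nearest to the threshold by adjusted p. Syt9 and the values of Syngr3 per library were added after their values were seen, as were the sum without Ptprz1 and the choice of 45 members by their level in the references. For gene positions, the Entrez identifiers of 23008 of 23079 genes were found in the RefSeq genes of GRCm38.p6. Some members counted in the totals are not reported here by name. No reference column could be tied to a numbered label, so these were used by group. Promoters are the 250 bases before the most upstream start in the RefSeq table.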

Additional observations from a re-analysis of the deposited data

Results flagged for a closer look

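Among the 56 members tested, 6 had 1 reference library whose gap to the nearest of the other 5 was large for the range of the 6 references (Dixon's test at the 95% level). Chance alone gives about 1 in 20 for values of normal spread from 1 group, but these references come from both sets. The share of all tested genes flagged was not computed, so 6 of 56 is not read as an excess. Snap25, the plasma membrane SNARE, was at 828 CPM in set 2 reference replicate 1 and next at 625 CPM. Sv2a, a vesicle glycoprotein gene, was at 136 CPM in set 2 reference replicate 2 and next at 105 CPM. Syt3 was at 27.7 CPM in the same library and next at 20.3 CPM. The other 3 were synaptotagmins near the limit of detection: Syt10 at 0.799 CPM and Syt15 at 1.78 CPM in set 1 reference replicate 1, and Syt12 at 0.724 CPM in set 1 reference replicate 3. Set 2 reference replicate 1 was also the highest reference for Stxbp6, at 162 CPM, which stands beside the fall of that gene in Math1Hoxa5-IRES-GFP.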

How the results depend on the processing

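For Hoxa5tdTomato, 3 members passed against the 6 references, where 255 of all genes passed. The count was 0 in the fit of 4 column-name groups (7 at an unadjusted p under 0.05), with 82 genes. It was 5 in that fit without the third Math1Hoxa5-IRES-GFP library (364 genes) and 6 with the libraries of set 1 alone (980 genes). The last 2 alternatives were chosen after seeing the data. Leaving out 1 library gave 0 to 6. The count was 0 without Hoxa5tdTomato replicate 1 or 2 (8 and 9 at an unadjusted p under 0.05), with 36 and 35 genes. Syt4 alone passed without Hoxa5tdTomato replicate 3 (52 genes) or set 2 reference replicate 1 or 3 (141 and 121 genes). Without Math1Hoxa5-IRES-GFP replicate 3, 6 members and 728 genes passed. For Math1Hoxa5-IRES-GFP, 6 members and 271 genes passed. The count was 2 with 4 column-name groups (127 genes) and 10 with DESeq2 (831 genes). With set 2 alone it was 0 (14 at an unadjusted p under 0.05), where 10 genes of the table passed. It was 5 to 8 when 1 library was left out, with 190 to 575 genes. Between the references of the sets, 0 members and 197 genes passed. The count was 5 with DESeq2 (589 genes) and 1 without the filter on low counts (243 genes). It was 0 to 7 when 1 library was left out. The 7 came without Math1Hoxa5-IRES-GFP replicate 3 (784 genes), and 2 and 1 without its replicates 1 and 2 (270 and 272 genes). For the difference of the changes the count was 0 members and 0 genes. DESeq2 called 1 member (Stxbp6) and 54 genes, and 0 members passed in each fit with 1 library left out. None of the 9 calls against the 6 references reversed its direction in 21 alternatives; other members were not followed through them. The call was kept in 18 of them for Syt4, 9 for Syt6 and 14 for Sv2b in Hoxa5tdTomato. In Math1Hoxa5-IRES-GFP it was kept in 20 for Stxbp6, 18 for Syt6, 17 for Syn1 and Cplx2, 16 for Syp and 6 for Snap25.

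With a replicate block 1 member passed in Hoxa5tdTomato (Syt4), with 72 genes, and 1 in Math1Hoxa5-IRES-GFP (Stxbp6), with 77 genes. In the difference of the changes 0 members and 0 genes passed. For same-numbered libraries of a set, the deviations of each gene from the mean of its column-name group were correlated over genes. These correlations were 0.0154 to 0.0271 in set 1 and -0.0453 to 0.0441 in set 2, so the numbers were not taken as pairs.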
